A study of Mus musculus with 2 samples.

Results

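The miR-7 family of the newborn mouse retina comprised 5 of the 1358 mature miRNAs in the deposited tables, taken by name as every row of miR-7a or miR-7b of any arm or copy. They were miR-7a-5p, miR-7b-5p, miR-7a-1-3p, miR-7a-2-3p and miR-7b-3p, and each had counts in both libraries. The series profiled small RNA of whole retina from wild-type CD-1 mice, an outbred strain, at postnatal day 0, in 1 group of 2 libraries called replicate 1 and replicate 2. The labels name no treatment, allele or transgene, and they state neither pooling of animals nor separate litters, so the spread between the libraries may be technical. With 1 group there was no condition to compare, and the data address how much of each miR-7 arm the newborn retina held, in what form, and how the members stood to each other.

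miR-7 is an ancient miRNA, conserved from flies to mammals, and in vertebrates it is known from neurons and endocrine cells such as those of the pancreatic islet and the pituitary. In the fly eye it promotes photoreceptor differentiation, and in the mouse forebrain and pancreas it represses Pax6, a transcription factor that is also central to eye development. A miRNA hairpin is cut into a duplex of a 5p and a 3p arm, of which Argonaute usually keeps one as the guide, and bases 2 to 8 of the guide, the seed, choose its targets. miR-7 is part of a circuit of non-coding RNAs in neurons, in which the circular RNA Cdr1as binds it at many sites, miR-671 directs the cleavage of Cdr1as, and the long non-coding RNA Cyrano pairs with miR-7 extensively and triggers its decay.

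The mature sequences are given because the family divides by seed, with bases 2 to 8 in capitals (RefSeq, GRCm38.p6, which matched 5 of 5 members).
miR-7a-5p: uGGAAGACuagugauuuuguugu
miR-7b-5p: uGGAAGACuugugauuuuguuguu
miR-7a-1-3p: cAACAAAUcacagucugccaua
miR-7a-2-3p: cAACAAGUcccagucugccaca
miR-7b-3p: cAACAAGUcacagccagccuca
Both 5p arms had the seed GGAAGAC and differed over 23 compared bases by a single substitution, A10U from miR-7a-5p to miR-7b-5p, counted from the 5′ end and outside the seed. The 3p arms were less alike. miR-7a-1-3p differed from miR-7a-2-3p by A7G, A10C and U21C, and the first of these lies in the seed, so miR-7a-2-3p shared its seed AACAAGU with miR-7b-3p and not with the other miR-7a copy. miR-7a-2-3p and miR-7b-3p differed at 4 of 22 bases, all outside the seed.

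The 3 hairpins below give rise to these arms, and they are shown with both mature arms in capitals, since the bases beside an arm show which reads can be assigned to a hairpin.
Mir7-1: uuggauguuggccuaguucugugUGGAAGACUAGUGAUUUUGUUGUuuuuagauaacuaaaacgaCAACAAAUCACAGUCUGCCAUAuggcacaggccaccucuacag
Mir7-2: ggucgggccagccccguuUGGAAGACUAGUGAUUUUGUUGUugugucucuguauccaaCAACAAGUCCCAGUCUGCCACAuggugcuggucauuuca
Mir7b: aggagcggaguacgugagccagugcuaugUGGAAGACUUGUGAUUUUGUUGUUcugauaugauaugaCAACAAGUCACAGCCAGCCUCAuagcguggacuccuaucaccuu
On GRCm38, Mir7-1 lies on the minus strand at chr13:58392779-58392886, in an intron of Hnrnpk, a gene of an RNA-binding protein, in all 12 annotated transcripts that span it, on the same strand. Mir7-2 lies on the plus strand at chr7:78888277-78888373, outside annotated transcripts other than its own, and its nearest annotated gene is Aen, 7481 bases away. Mir7b lies on the plus strand at chr17:56242988-56243098, also outside other annotated transcripts, 183 bases from the lincRNA AC026385.1. miR-7a-5p is cut from both Mir7-1 and Mir7-2. From the first base of miR-7a-5p these hairpins shared 24 bases and then diverged, so its count covers both hairpins, while the 3p rows keep them apart.

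miR-7a-5p was by far the most abundant member and among the leading miRNAs of the retina. It had 88801 counts in replicate 1 and 100145.5 in replicate 2, which is 10650 CPM (CPM, the count scaled so that a library's table sums to 1000000; exact 95% binomial interval 10581 to 10720) and 12336 CPM (12260 to 12412). Its mean of 11493 ± 1192 CPM (SD, n = 2) ranked 15 of 1358. In bulk tissue, fewer cells that hold a miRNA and less of it per cell cannot be told apart. miR-7b-5p, the guide of the Mir7b hairpin, stood at 493 CPM (478 to 509) and 626 CPM (609 to 643), averaging 559.6 ± 93.7 CPM (SD, n = 2) at rank 95.

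The 3p arms, the usual passenger strands of the family, were low in both libraries. miR-7a-1-3p, the arm particular to Mir7-1, had 267 and 244 counts, or 32.0 CPM (28.3 to 36.1) and 30.1 CPM (26.4 to 34.1). miR-7a-2-3p, the arm particular to Mir7-2, had 146 and 177 counts, or 17.5 CPM (14.8 to 20.6) and 21.8 CPM (18.7 to 25.3). miR-7b-3p had only 14 and 7 counts, or 1.68 CPM (0.918 to 2.82) and 0.862 CPM (0.347 to 1.78), close to the 0.36 and 0.37 CPM that 3 counts make in these libraries. The intervals of the neighbouring members did not overlap in either library, so the order of levels from miR-7a-5p through miR-7b-5p, miR-7a-1-3p and miR-7a-2-3p to miR-7b-3p was the same in both. Together the 5 rows held 1.12% of the counts in replicate 1 (1.11 to 1.13) and 1.30% in replicate 2 (1.29 to 1.31), of which miR-7a-5p made up 95.1% and 94.8%.

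**Figure D1:**
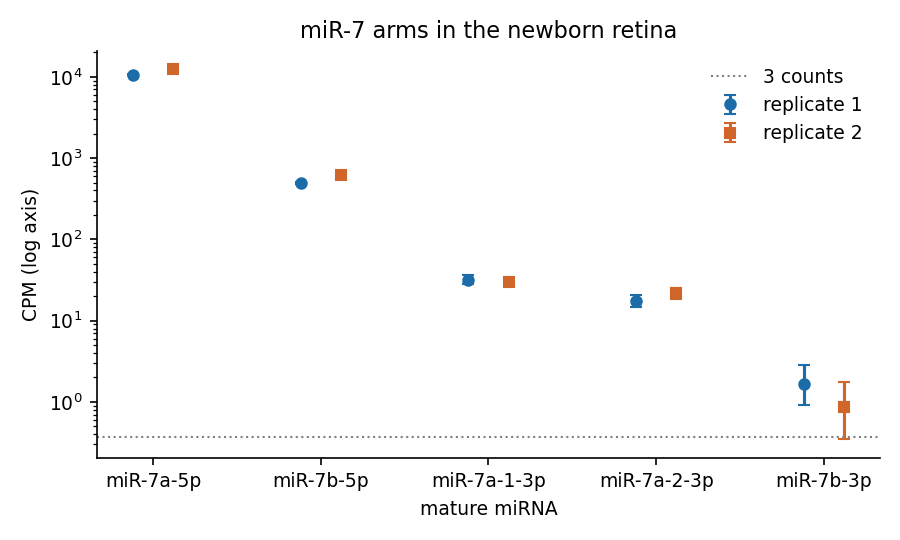
Level of each miR-7 arm in CPM on a log axis, with circles for replicate 1, squares for replicate 2 and bars for exact 95% binomial intervals. The dotted line marks 3 counts, and the lowest member, miR-7b-3p, reaches close to it whereas miR-7a-5p lies at 10650 and 12336 CPM.

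Members were set against each other inside each library as log2(count + 0.5) differences, and were called different where both libraries had the same sign, both exact 95% intervals left out equality and the mean exceeded 2 SD. All 10 pairs of members met this rule. The share of pairs among all miRNAs that would meet it was not measured, so this count is not read as particular to miR-7. miR-7a-5p exceeded miR-7b-5p by a log2 ratio of 4.43 (4.39 to 4.48) in replicate 1 and 4.30 (4.26 to 4.34) in replicate 2. The mean was 4.37 ± 0.093 (SD, n = 2), or 20.6-fold. miR-7b-5p thus made up 4.43% of the 5p counts in replicate 1 (4.30 to 4.56) and 4.83% in replicate 2 (4.70 to 4.96). The intervals of this share did not overlap between the libraries, but they cover counting error only. Differences beyond counting error were usual here, as 78.3% of miRNAs at 100 CPM or more were called different between the libraries. A single base tells miR-7a-5p and miR-7b-5p apart. The mismatch setting of the counting is not given in the sources used here, so an exchange of reads between them was not tested.

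miR-7a-1-3p and miR-7a-2-3p were the closest pair. The copy from the Hnrnpk intron had the higher count in both libraries, with a log2 ratio of 0.87 (0.57 to 1.17) in replicate 1 and 0.46 (0.18 to 0.75) in replicate 2. The mean of 0.67 ± 0.29 was only just over 2 SD, so this difference is weakly supported. miR-7a-1-3p made up 64.6% (59.8 to 69.3) and 58.0% (53.1 to 62.7) of the miR-7a 3p counts. How much of miR-7a-5p came from each hairpin was not measured, since the decay of each passenger strand and the ligation yield of each sequence also enter a 3p count. Summed, the miR-7a 3p copies exceeded miR-7b-3p by a log2 ratio of 5.32 ± 0.69, a wider gap than the 4.37 between the 5p arms, but with an SD set by the 14 and 7 counts of miR-7b-3p. The difference between these gaps was not tested.

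The guide arm exceeded the passenger arm by 215-fold or more in each branch of the family and each library. In miR-7a the log2 ratio of 5p over the summed 3p copies was 7.75 (7.61 to 7.89) in replicate 1 and 7.89 (7.76 to 8.04) in replicate 2. These average to 7.82 ± 0.10, or 226-fold. In miR-7b it was 8.15 (7.45 to 9.07) and 9.40 (8.46 to 10.8), a mean of 8.78 ± 0.89 or 438-fold. The intervals of the branches overlapped in replicate 1 and did not in replicate 2, and the means lay within 2 SD of miR-7b. Passenger strands were 0.463% (0.419 to 0.510) and 0.419% (0.380 to 0.460) of the miR-7a counts, and 0.339% (0.186 to 0.569) and 0.138% (0.0553 to 0.283) of the miR-7b counts.

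Strong use of the 5p arm was common in this tissue, and so was strong use of the 3p arm. The arm ratio was taken for the 337 hairpin names whose 5p and 3p rows together reached 10 counts per library, after copies of a name were summed. Equality of the arms was tested in each library (exact binomial, two-sided, Benjamini-Hochberg adjusted). Of these names, 47.8% had a 5p arm called higher, with an adjusted p below 0.05 in both libraries and a mean over 2 SD, and 41.8% had a 5p arm at least 4-fold higher in both libraries. Both miR-7a and miR-7b were among each of these 5p sets. In the other direction, 121 of the 337 names had a 3p arm at least 4-fold higher in both libraries. By mean log2 ratio, miR-7b ranked 30 and miR-7a ranked 42 of 337, against a median of 0.54 over all names and 5.52 over the 141 names with a 4-fold excess of 5p.

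**Figure D2:**
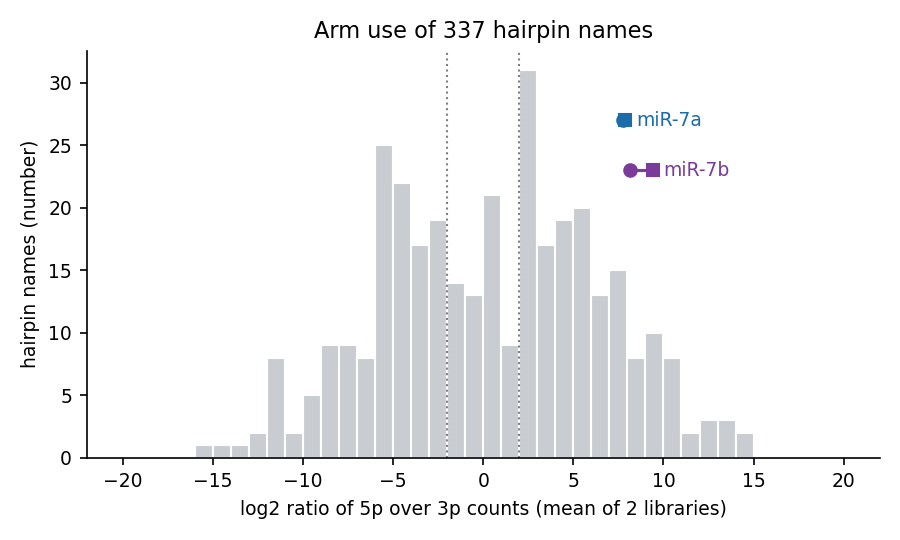
Mean log2 ratio of 5p over 3p counts for 337 hairpin names, as the number of names in steps of 1 log2 unit, with dotted lines at a 4-fold ratio in either direction. The points, placed at a height of no meaning, give miR-7a and miR-7b in replicate 1 (circle) and replicate 2 (square), both far to the right of the median of 0.54.

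The predicted folds of the hairpins differed in how fully the arms paired. In the minimum free energy structure from RNAfold, 19 of the 23 bases of miR-7a-5p paired with miR-7a-1-3p in Mir7-1, 18 of 23 with miR-7a-2-3p in Mir7-2, and 15 of the 24 bases of miR-7b-5p paired with miR-7b-3p in Mir7b. The predicted free energies were -46.8 kcal/mol for Mir7-1 (108 bases), -40.5 kcal/mol for Mir7-2 (97 bases) and -35.0 kcal/mol for Mir7b (111 bases). The hairpin with the fewest paired bases, Mir7b, was also the one with the lowest passenger count. Its guide was low as well, at 559.6 CPM against 11493 CPM for miR-7a-5p, which 2 hairpins yield. With 3 hairpins this is a description, and a link between pairing and passenger count was not tested.

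The most frequent read of each 5p arm was 1 base longer at the 3′ end than the entry of miRBase 21, the reference of the deposited table. The reads are shown with the added base in capitals, in DNA letters as deposited.
miR-7a-5p, both libraries: tggaagactagtgattttgttgtT
miR-7b-5p, both libraries: tggaagacttgtgattttgttgtT
Both reads had 24 bases and the same 5′ end as the reference, so the seed was unshifted. The added base matched the base that follows the arm in each of the 3 hairpins, and in Mir7b it completed the 24-base mature sequence that RefSeq lists. The 24-base read of miR-7a-5p covers exactly the stretch shared by Mir7-1 and Mir7-2.

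The 3p reads carried no added base. The most frequent reads of miR-7a-1-3p and miR-7a-2-3p equalled the RefSeq sequences, at 22 bases, in both libraries. miR-7b-3p had the 22-base form in replicate 1 and a form 1 base shorter at the 3′ end, caacaagtcacagccagcctc, in replicate 2, where it had 7 counts in all. Among the 365 miRNAs at 10 CPM or more, 89.3% started at the annotated base in both libraries, 92.9% had the same most frequent read in both and 20.5% had added 3′ bases in both. Of the 4 miR-7 arms at that level, 4 started at the annotated base, 4 had the same read in both libraries and 2, the 5p arms, had an added base. The deposited table gives no count for these reads, so the share of each form was not measured.

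Between the libraries, both 5p arms were higher in replicate 2 and the 3p arms were not called. The 710 miRNAs that reached 10 counts in the libraries combined were each tested against the split given by the table totals (exact binomial, two-sided, Benjamini-Hochberg adjusted). This compares libraries and not conditions. Of all tested, 27.9% were called, 8.31% higher and 19.6% lower in replicate 2. This balance depended on the scaling, with 59 higher and 139 lower by table totals, 107 and 80 by TMM (edgeR's trimmed mean of ratios) and 101 and 88 with DESeq2 size factors. By table totals, 78.3% of those with 100 CPM or above were called and 25.0% were called higher in replicate 2, so a call at the level of the 5p arms is common. miR-7a-5p had a log2 ratio of 0.21 (0.20 to 0.23; adjusted p = 1.75e-221, exact binomial test) and miR-7b-5p of 0.34 (0.28 to 0.40; adjusted p = 8.73e-29, exact binomial test).

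The ratio was larger for miR-7b-5p than for miR-7a-5p, and their intervals did not overlap. These intervals cover counting error only. Whether the arms differ in their ratio beyond the spread between libraries was not tested. The median ratio over all tested miRNAs was -0.12, so both 5p arms lay further above the typical miRNA than above 0. Without regard to sign, the median ratio of the 180 miRNAs at 100 CPM or more was 0.17, near the 0.21 of miR-7a-5p. Scaled by TMM, the median was -0.004 and the ratios were 0.33 for miR-7a-5p and 0.46 for miR-7b-5p. By table totals, the SD of miR-7a-5p between the libraries was 10.4% of its mean and that of miR-7b-5p was 16.7%. Under TMM the spread was wider, at 11537 ± 1859 CPM for miR-7a-5p and 563 ± 126 CPM for miR-7b-5p. The coefficient of variation beyond counting error over 710 miRNAs was 0.104 in edgeR. That value used TMM scaling, so it is not on the scale of the percentages by table totals. It goes beside the TMM spreads, and as a share of the mean both of those were above 0.104. Whether the 5p arms vary more than other miRNAs was not tested.

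The 3p arms gave smaller or less precise differences. miR-7a-1-3p had a log2 ratio of -0.09 (-0.35 to 0.16; adjusted p = 0.689, exact binomial test) and miR-7b-3p of -0.91 (-2.51 to 0.44; adjusted p = 0.389, exact binomial test). miR-7a-2-3p had a ratio of 0.32 (-0.01 to 0.64; adjusted p = 0.151, exact binomial test), and was called under TMM scaling at 0.43 (adjusted p = 0.0294, exact binomial test) and with DESeq2 size factors at 0.42 (adjusted p = 0.0402, exact binomial test). At these counts a difference of the size seen in the 5p arms was within the intervals of miR-7a-2-3p and miR-7b-3p, and above the interval of miR-7a-1-3p.

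**Figure D3:**
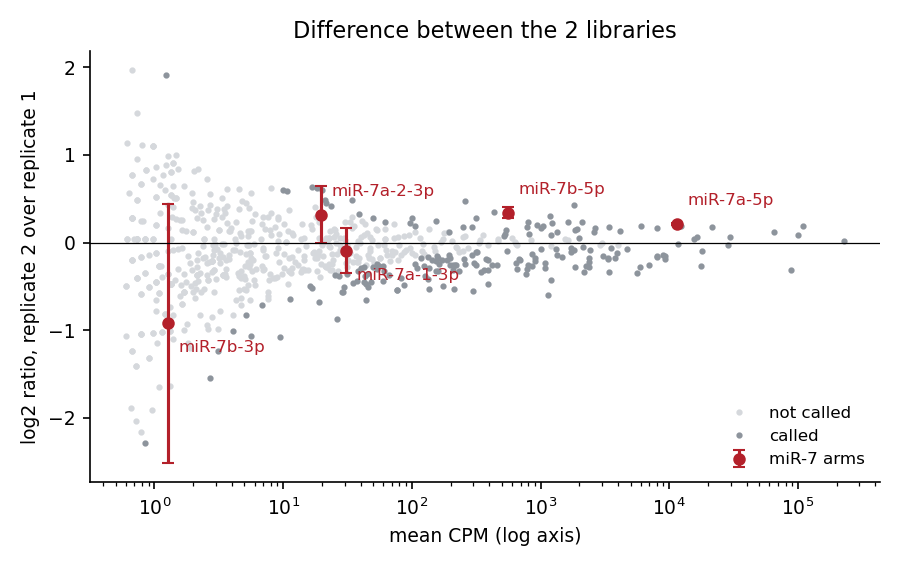
Log2 ratio of replicate 2 over replicate 1 against mean CPM (log axis) for 710 miRNAs, with called miRNAs in dark grey and the miR-7 arms in red with exact 95% intervals. miR-7a-5p and miR-7b-5p lie above 0 with narrow intervals, and the intervals of the 3p arms include 0.

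Grouped by seed, miR-7 was the eleventh most abundant targeting sequence of the retina. CPM of the 1152 rows matched to a RefSeq sequence, which held 95.5% of the counts, was summed by bases 2 to 8. The seed GGAAGAC held 11144 and 12962 CPM, on average 12053 ± 1286 CPM (SD, n = 2), and ranked 11 of 835 seeds in both libraries. The matched rows with this seed were miR-7a-5p and miR-7b-5p alone. The seed of miR-7a-1-3p, with 31.0 ± 1.39 CPM, ranked 192, and the seed shared by miR-7a-2-3p and miR-7b-3p, with 20.9 ± 2.46 CPM, ranked 221, and each was held by miR-7 rows alone. With seeds taken from the most frequent reads of all rows the 5p seed also ranked 11.

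**Figure D4:**
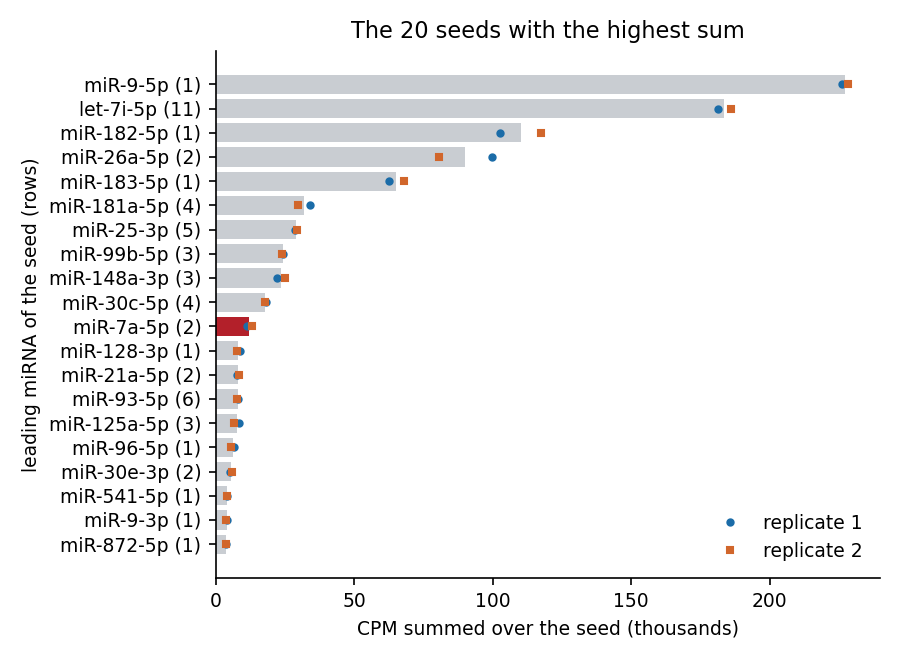
CPM summed over miRNAs with the same bases 2 to 8, for the 20 highest seeds among rows matched to RefSeq, named by the leading miRNA with the number of rows in parentheses. Bars give the mean, circles replicate 1 and squares replicate 2, and the miR-7 seed (red) holds rank 11 at 12053 CPM.

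The miRNAs with levels most like those of the 5p arms were found by the distance in log2 CPM over the 2 libraries. For miR-7a-5p they were let-7g-5p at 12358 ± 1131 CPM (distance 0.15), miR-92a-3p at 11769 ± 106 CPM (0.17) and miR-181b-5p at 9309 ± 696 CPM (0.50). For miR-7b-5p they were miR-488-3p at 535 ± 36.8 CPM (0.16), miR-127-3p at 529 ± 24.1 CPM (0.20) and miR-501-3p at 520 ± 19.9 CPM (0.23). With 2 libraries this likeness is one of level alone.

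miR-671, of the circuit named above, and miR-375-3p were present at lower levels than the miR-7 5p arms. miR-671-5p, the arm known to direct cleavage of Cdr1as, had 210 and 187 counts, which is 24.1 ± 1.52 CPM (SD, n = 2), and miR-671-3p had 114 CPM (107 to 122) and 118 CPM (111 to 126). The arm with the known target was thus the lower one of its hairpin in both libraries, and both arms lay below miR-7b-5p. miR-375-3p, which endocrine cells express with miR-7, had 67.6 CPM and 78.1 CPM, far below miR-7a-5p and also below miR-7b-5p.

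Cdr1as and Cyrano are too long for this assay, and only their reference sequences were examined, after the values of the miRNAs were known. The heptamer GTCTTCC, which pairs with bases 2 to 8 of both 5p arms, was counted on the sense strand of GENCODE M21 transcripts, overlapping matches included. It occurred 123 times in a transcript of 3354 bases of C230004F18Rik, listed by RefSeq with the synonym Cdr1as. This was the shortest of the gene's 11 transcripts with at least 100 matches, so its count entered its choice and the comparison with other transcripts is a description. Of 8164 transcripts within 10% of that length, 27.3% held a match, and none outside this gene held more than 4. The highest count in any other gene was 11, in 11187 bases of Hrnr. Over all 141767 transcripts, 13.8% held a match.

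The annotated Cyrano transcript, listed as 1700020I14Rik, had 2 matches in 8300 bases, and one of them continued into a long complementary stretch. It lies on the plus strand at chr2:119602136-119602161 and is shown as the site to which both 5p reads can pair, with the paired bases in capitals.
Cyrano site: AACAACAAAATCACcaatGTCTTCCA
Bases 1 to 8 and bases 11 to 24 of either read were complementary to it, 22 of 24 bases. The position of the A10U substitution lay in the unpaired stretch between them, and the added 3′ base of the reads was within the paired one. miR-7a-5p and miR-7b-5p were therefore equal in their match to this site. A match of letters does not show binding, and the RNA of Cyrano was not measured here.

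All 6 listed markers of neural retina (miR-9-5p, miR-182-5p, miR-183-5p, miR-96-5p, miR-124-3p and miR-181a-5p) were detected in both libraries. They summed to 417532 and 435873 CPM, carried mainly by miR-9-5p, miR-182-5p and miR-183-5p. These leading markers were higher in replicate 2 and the others were lower. The lowest, miR-124-3p, averaged 649 CPM. Of the 16 listed markers outside neural retina, only miR-204-5p (3389 CPM), miR-126a-3p (905 CPM) and miR-184-3p (804 CPM) averaged more than miR-124-3p. The 16 listed markers of pigment epithelium, endothelium, lens and surface epithelium, muscle, endocrine cells, erythroid cells and leukocytes summed to 5794 and 5016 CPM, less than miR-7a-5p alone, with no common direction. Lower in replicate 2 were the summed markers of pigment epithelium, at 3789 against 3000 CPM, and of endothelium, at 985 against 854 CPM. The pigment epithelium sum was almost all miR-204-5p, at 3784 and 2994 CPM, while its other marker, miR-211-5p, stood at only 5.94 and 5.30 CPM. Higher in replicate 2 were those of lens and surface epithelium, at 860.0 against 990.1 CPM, and the endocrine marker, at 67.6 against 78.1 CPM. In the lens and surface epithelium sum only miR-184-3p was higher, at 738 against 869 CPM, while miR-203-3p stood at 122.0 and 120.8 CPM. Muscle markers summed to 90.4 ± 2.35 CPM (SD, n = 2). Differences between the libraries in these sums were not tested. Of these 16, 13 were detected in both libraries, while the surface epithelium marker miR-205-5p and the leukocyte markers miR-150-5p and miR-223-3p stood at 0. The part of other cell types in the miR-7 levels was not tested.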

How the data were processed

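Small RNA of 18 to 30 nt was isolated on a gel from whole retina and ligated into libraries, per the labels' protocols, and bcl2fastq 2.17.1.14 made the read files, per the submitters' processing notes. The trimming, the aligner and its mismatch setting were not given in the sources used here, nor was the genome build. The deposited table of estimated counts is unscaled. Reads that fitted several miRNAs appear to have been divided, since miR-7a-5p and miR-7b-5p in replicate 2 each ended in 0.5 and summed to 105226. The deposited CPM table was scaled by the authors to a library total, of which the rows sum to 88.5% in both libraries. The third table gives the most frequent read per miRNA, marked against miRBase 21. All value columns belonged to these samples.

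The CPM printed here was recomputed from table totals of 8337902 and 8118207 counts; 3 counts equal 0.36 and 0.37 CPM. Counts were rounded to whole numbers for ratios, intervals and tests. Exact (Clopper-Pearson) 95% intervals cover counting error only, as PCR copies were not collapsed by molecular identifiers and ligation yield differs between sequences. The exact binomial tests were run on simulated counts that held counting error alone. That check cannot show how the tests behave with the further spread between real libraries. Scaling and dispersion used edgeR 4.0.16 and DESeq2 1.42.0 in R 4.3.3; other values used Python 3.11.15, SciPy 1.17.1, pandas 2.3.3 and RNAfold 2.7.2. The alternatives tried were other scalings, added counts, count minimums, arm thresholds, seed definitions and leaving out each library. Members, lists and tests were chosen with earlier results of these data known. Named miRNAs are the 5 members, the 3 nearest in level to each 5p arm, the arms of miR-671 and miR-375 (miR-375-5p had no row) and any row sharing a miR-7 seed.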

Additional observations from a re-analysis of the deposited data

How the results depend on the processing

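The deposited CPM gave 10174 for the mean of miR-7a-5p, lower because its library total is larger than the sum of the rows analysed. The calls for the 13 ratios between miR-7 arms or sums of arms were the same with 1 or nothing added to each count and without rounding, and each ratio kept its sign in either library alone. The rank of the 5p seed was 11 under every seed definition and library tried. The names miR-7a and miR-7b had a 5p excess at 2-fold, 4-fold and 10-fold thresholds, whereas the share of all names with such an excess was 46.9%, 41.8% and 32.0%, and at 4-fold was 48.2% with a minimum of 100 counts and 35.2% with a minimum of 1 count. With the deposited CPM miR-7a-1-3p stood at 27.5.

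Scaling between the libraries mattered more. The log2 ratio of miR-7a-1-3p changed sign, to 0.027 by TMM and 0.011 with DESeq2 size factors, and was not called under any scaling. miR-7a-2-3p was called under these scalings alone. miR-7a-5p and miR-7b-5p were called higher in replicate 2 under all 3 scalings and all count minimums. No paired analysis was possible because the series has 1 group. The precision of miR-7b-3p is limited by its 14 and 7 counts.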

Other observations

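The first base of each arm was also read from the RefSeq sequences. Both miR-7 5p arms start with U and all 3 of the 3p arms start with C. Among 208 hairpin names with an arm at least 4-fold higher in both libraries and a single first base per arm, the higher arm started with U in 52.9% and the lower arm with U in 22.1%. The lower arm started with C in 29.8%, and the combination seen in miR-7a and miR-7b, U on the higher and C on the lower arm, was found in 37 names (17.8%). These shares are a description of the names in this table and were examined after the arm ratios were known.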
